A study of Mus musculus with 300 samples.

Results

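The brightest ID4-EGFP spermatogonia are the 79 single cells, of 300 sequenced, whose label puts them in quartile Q1 of EGFP epifluorescence. All cells were called spermatogonia by the submitters and came from untreated adult mice that carry the ID4-EGFP reporter, in which EGFP fluorescence follows the transcriptional regulator ID4. In each of 4 replicate preparations, testes of 2 or more mice were digested together, CD9-bright, EGFP-positive cells were sorted, and single cells were captured on a Fluidigm C1 chip, imaged for EGFP and turned into polyA-primed SMARTer cDNA. Q2 (78 cells), Q3 (71 cells) and Q4 (72 cells, the dimmest) come from the same preparations, so that every group shares the reporter, the sort gate and the digestion. The membership of Q1 was taken from the fluorescence label alone, with 17, 21, 19 and 22 cells from preparations 1 to 4, and no transcript value entered it. The replicate in every test is the preparation (n = 4), since cells of 1 preparation share animals and chip.

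Spermatogonial stem cells sit on the basement membrane of the seminiferous tubule and either renew themselves or yield progenitors that later respond to retinoic acid and differentiate. Renewal depends on glial cell line-derived neurotrophic factor (GDNF) from neighbouring somatic cells, which binds the receptor pair GFRA1 and RET and signals through the ERK and AKT kinase pathways. ID proteins pair with basic helix-loop-helix transcription factors and keep them off DNA, and ID4 reporters have been used to enrich for cells with stem cell activity in transplantation.

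The label was checked against markers. Of 6 markers (Tcl1, Dusp6, Etv5, Gfra1, Eomes and Lhx1), at least 4 were at 1 FPKM or more (fragments per kilobase of transcript, scaled to the mapped total) in 71 of 79 Q1 cells, which is 89.9%, against 58.97% of Q2, 30.99% of Q3 and 8.33% of Q4 cells. No Q1 cell lacked all 6, and 18 carried all 6. Q1 cells were not uniform for them: the median Q1 cell carried 5. The markers were chosen with results of these data known, so these counts describe the group and are no independent evidence for it.

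Facts that bear on all values below are these. Deposited FPKM summed to between 349777 and 598035 in Q1 cells. The number of reads behind a cell is not known, so no counting interval can be given. Q1 cells showed 5687 ± 697 genes at 1 FPKM or more (SD, n = 4), against 5485 ± 889, 5426 ± 851 and 5356 ± 810 in Q2, Q3 and Q4. The Q1 excess of 264 genes per cell was present in 3 of 4 preparations (exact permutation p = 0.0391, of a smallest possible 0.00391) and passed the threshold in 1 of the 4 fits that left a preparation out. Inside Q1, preparation 1 stood apart with 4652 genes per cell against 6092, 5894 and 6108. Of the 8 lists of markers of other testis cell types, 6 were matched by no Q1 cell, while 1 Q1 cell matched the macrophage and leukocyte list and 1 the spermatid list. Of 7 Leydig cell genes, 6, among them Cyp17a1 and Insl3, were under 1 FPKM in all 79 cells, as were Amh, Gata1, Cldn11 and Aard of the Sertoli list. Other members were detected. The Leydig gene Star was at 1 FPKM or more in 10 Q1 cells. Of the Sertoli list, Clu was in 11 cells, Sox9 in 7, Rhox5 in 4, and Wt1 and Cst12 in 1 each. Flt1 of the endothelial list was in 20 and Cd68 of the macrophage and leukocyte list in 12. The spermatid transcript Tnp1 was at 1 FPKM or more in 50 Q1 cells and the spermatocyte chaperone Hspa2 in 55. A gene listed at 0 FPKM is not shown to be off.

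The largest level difference of Q1 was in Tcl1, which encodes a co-activator of the AKT kinases. Its mean log2(FPKM + 1) in Q1 was 6.70, 7.94, 7.58 and 6.91 in preparations 1 to 4, and the means of the other quartiles of those preparations averaged 4.13, 4.91, 3.88 and 4.06. Q1 was higher in all 4 preparations, and the lowest Q1 mean lay below the highest of the 12 other means, 7.21, which was Q2 of preparation 4. The difference was 3.04 ± 0.35 (SE) on the log2(FPKM + 1) scale (limma, adjusted p = 1.52e-05 over 10411 genes). On log2 of the mean FPKM over cells, in place of the mean of logs, it was 1.67 and did not pass (adjusted p = 0.0779). Folds on that scale understate the change of genes at low levels.

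Dusp6 encodes a phosphatase that removes phosphate from ERK and is itself induced by ERK signalling. Its Q1 means were 5.18, 6.23, 6.44 and 5.22 against 3.00, 3.63, 2.81 and 3.08 in the rest of each preparation. Preparations 1 and 4 lay just under the highest of the 12 other means, 5.23, and preparations 2 and 3 above it. The difference was 2.64 ± 0.34 (limma, adjusted p = 5.64e-05). Gfra1, the GDNF receptor subunit that binds the ligand, had Q1 means of 4.13, 5.87, 4.53 and 4.09 against 1.59, 2.80, 2.61 and 2.16, a difference of 2.37 ± 0.32 (adjusted p = 0.000118). Etv5, an ETS-family transcription factor induced by GDNF in cultured stem cells, had Q1 means of 4.71, 5.71, 5.22 and 4.72 against 2.58, 3.46, 3.25 and 2.92. That difference was 2.04 ± 0.30 (adjusted p = 0.000264), and 0.29 ± 0.37 against Q2 alone (adjusted p = 0.971).

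Eomes and Lhx1, both transcription factors with developmental roles outside the testis, were at lower levels and in fewer cells. Eomes was at 1 FPKM or more in 58.2% of Q1 cells, 34.6% of Q2, 8.45% of Q3 and 6.94% of Q4 cells. Its Q1 means were 1.62, 2.62, 3.34 and 2.90 against 0.32, 0.60, 1.12 and 0.67, a difference of 1.94 ± 0.27 (limma, adjusted p = 0.000148), a call kept under all 13 other settings. Lhx1 had Q1 means of 1.19, 2.27, 1.51 and 1.25 against 0.16, 0.44, 0.29 and 0.46, and all 4 lay above the highest of the 12 other means, 1.02. Its difference was 1.21 ± 0.19 (adjusted p = 0.000486). On log2 of mean FPKM the differences of Dusp6, Etv5 and Lhx1 were 1.65, 1.16 and 2.42 and did not pass either (limma, adjusted p = 0.0812, 0.0916 and 0.0671), while Gfra1 and Eomes passed. The plot of the 6 markers by quartile shows that the Q1 to Q2 step was small for Etv5 and that Eomes and Lhx1 were near 0 in Q3 and Q4.

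**Figure D1:**
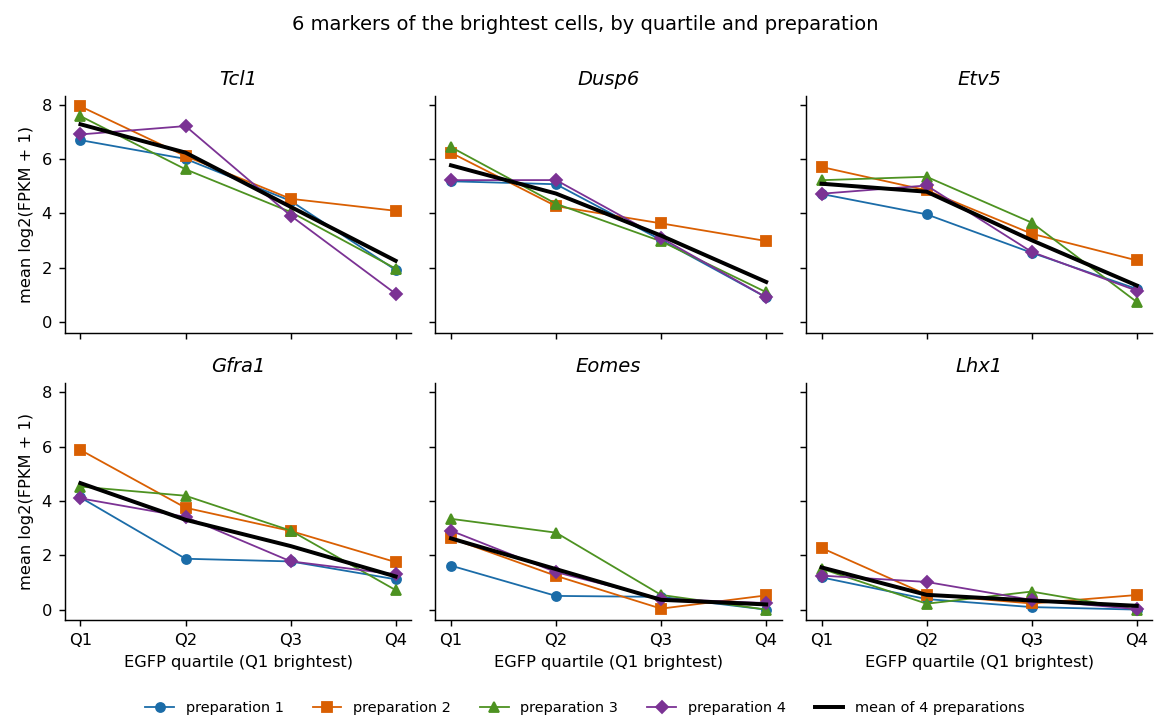
Mean log2(FPKM + 1) of the 6 markers (y axis) in each EGFP quartile (x axis), with 1 coloured line per preparation and the mean of the 4 in black. Q1 is the highest quartile on average for all 6, with Tcl1 at 7.28 and Lhx1 at 1.55.

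The sequence upstream of the start sites is shown for the 2 markers with the largest differences, Tcl1 and Dusp6, as RefSeq gives it for GRCm38.p6. Both stretches end at the base before the annotated start and read 5′ to 3′ on the gene's strand. Tcl1 lies on the minus strand at chr12:105216750-105222793 and its stretch at chr12:105222794-105222987. Dusp6 lies on the plus strand at chr10:99263231-99267489 and its stretch at chr10:99262981-99263230. Capitals mark CGGAAG, 1 form of the motif bound by ETS factors such as ETV5, searched on both strands. Shorter forms such as GGAA were not searched for and are not marked. CGGAAG occurred 1 time upstream of Dusp6, on the opposite strand, and not in the 194 bases shown for Tcl1. Of 32851 RefSeq promoter windows, 13.6% held CGGAAG in their 250 upstream bases. A match is a description of the letters and no evidence of binding. The promoter table held 104 of the 153 genes higher in Q1, 67.97%, too few for a comparison of the share over the list.
Tcl1: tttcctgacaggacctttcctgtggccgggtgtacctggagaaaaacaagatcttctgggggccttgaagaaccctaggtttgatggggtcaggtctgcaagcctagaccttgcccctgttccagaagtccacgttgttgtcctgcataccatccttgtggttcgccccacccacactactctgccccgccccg
Dusp6: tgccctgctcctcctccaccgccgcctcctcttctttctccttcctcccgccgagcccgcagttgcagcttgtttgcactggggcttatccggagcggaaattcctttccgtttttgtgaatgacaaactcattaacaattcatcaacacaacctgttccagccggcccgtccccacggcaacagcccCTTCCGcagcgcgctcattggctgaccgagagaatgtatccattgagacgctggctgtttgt

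Across all genes, 153 of 10411 were higher in Q1 than the mean of Q2, Q3 and Q4 at an adjusted p under 0.05 in limma, 1.47% of those tested, and 14 were lower, 0.134%. Together they were 1.6% of the genes. The median difference over all genes was 0.08. After the means of each preparation and quartile were centred on their median gene it was -0.05, a shift of 0.14. Centring gave 79 higher and 38 lower, so the share of calls that were higher went from 91.6% to 67.5%. With the number of detected genes as a covariate, 50 were higher and 9 lower, and with log2 of the mean FPKM in place of the mean of logs, 17 and 10.

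The 12 genes with the largest differences above 0 held 4 of the markers and 8 others. Nefm encodes the medium subunit of the neurofilament, a structural protein of axons. Its Q1 means of 3.996, 4.99, 4.47 and 4.28 stood above all 12 other means, of which the highest was 3.52, and the difference was 2.90 ± 0.33 (adjusted p = 1.34e-05). Ptpn13, a large non-receptor tyrosine phosphatase, was at 4.18, 4.87, 4.82 and 4.94 in Q1 and at most 3.87 elsewhere, a difference of 2.54 ± 0.33. Hhex, a homeobox factor of endoderm and blood, and Nid1, the basement membrane protein nidogen, differed by 2.32 and 2.24. Tagln2, an actin-binding protein of the transgelin family, differed by 2.19, Arhgap26, a GTPase-activating protein of the cytoskeleton, by 2.00, and Impact, a regulator of the amino acid stress kinase GCN2, by 1.98. All 12 were higher in 4 of 4 preparations, as the choice of genes required. On log2 of mean FPKM, Nefm, Hhex and Impact lost their calls (limma, adjusted p = 0.112, 0.287 and 0.0916), as did Tcl1, Dusp6 and Etv5 above, and Impact also lost it without the preparation block (adjusted p = 0.1601). The row named Id4e, which matches no gene symbol, was at 3.62, 4.84, 3.54 and 3.51 in Q1 against at most 2.35 elsewhere, a difference of 2.63 ± 0.27 (adjusted p = 5.64e-06). If that row holds transcripts of the gene or of the reporter by which cells were ranked, its difference follows from the ranking. Exons of Gfra1, Eomes, Nefm, Ptpn13 and Nid1 overlap those of a gene on the other strand, and the protocol does not mark strand, so reads of such pairs cannot be told apart.

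Genes lower in Q1 included transcripts of later spermatogonia. Sohlh1, a germ cell basic helix-loop-helix factor required for spermatogonial differentiation, was at 3.12, 4.62, 3.89 and 4.83 in Q1 and at 5.66, 5.93, 5.49 and 5.94 in the rest. All 4 Q1 means lay under the lowest of the 12 other means, 4.96, and the difference was -1.64 ± 0.29 (limma, adjusted p = 0.00161). Upp1, uridine phosphorylase, was at 2.82, 3.30, 1.78 and 3.65 against 3.86, 5.25, 4.47 and 5.54, a difference of -1.89 ± 0.33 (adjusted p = 0.00188). Ndrg4 differed by -1.84 ± 0.29 and passed the threshold under all 13 other settings tried. Gng13, a G protein gamma subunit, the X-linked homeobox gene Rhox10, the galectin Lgals2, the small nucleolar RNA host gene Snhg9 and Ifi30, a lysosomal thiol reductase, differed by -1.51, -1.50, -1.41, -1.38 and -1.37. Those 5 lost their call under 5 to 9 of 13 other settings, in each case under 2 or more of the fits that left a preparation out. With detected genes as a covariate, Upp1 and Sohlh1 also lost theirs, while Ndrg4 kept its call. Exons of Gng13, Lgals2, Snhg9 and Ifi30 overlap a gene on the other strand, which for Snhg9 is the ribosomal protein gene Rps2.

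**Figure D2:**
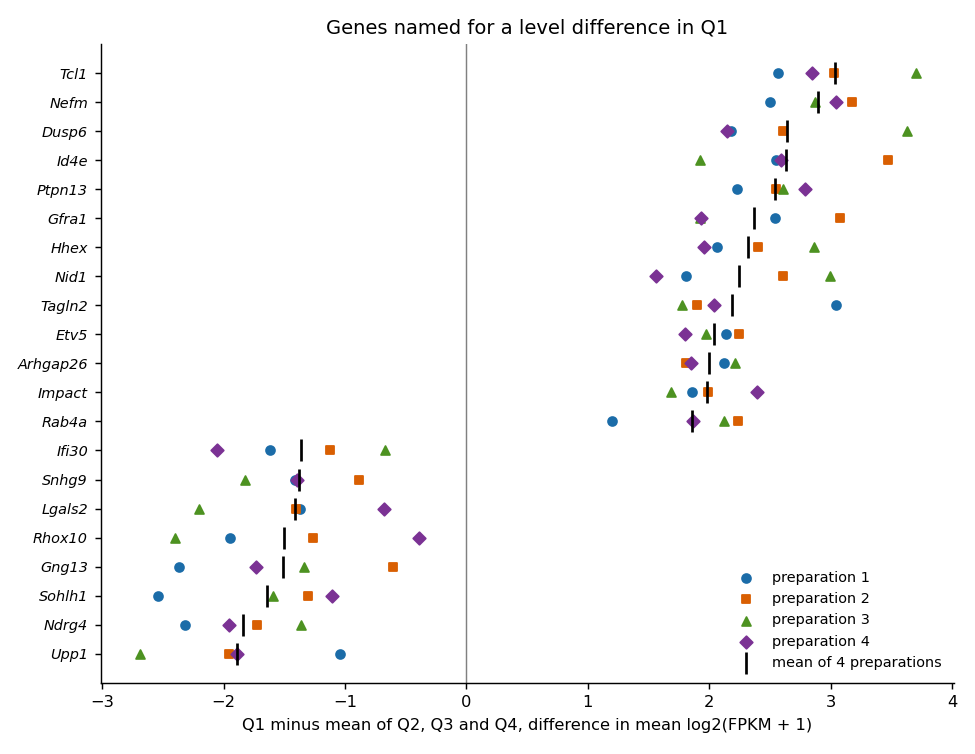
Q1 minus the mean of Q2, Q3 and Q4 (x axis, difference in mean log2(FPKM + 1)) for each gene named for a level difference, with 1 symbol per preparation and a black bar at the mean of the 4. All points of the 13 upper genes lie right of 0 and all points of the 8 lower genes left of it, as the choice of genes required, and Tcl1 is highest at 3.04.

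Against Q2 alone, the next brightest cells, 2 of 10411 genes passed the threshold, 0.0192%, both higher in Q1. They were the Id4e row, with a difference of 2.00 ± 0.33, and Rab4a, with 1.58 ± 0.26 (limma, adjusted p = 0.0141 for both). Rab4a encodes a small GTPase of the rapid recycling of endocytosed receptors. Its Q1 means were 1.299, 2.63, 2.50 and 2.42, and its means over 4 preparations were 0.63, 0.15 and 0.29 in Q2, Q3 and Q4. It was at 1 FPKM or more in 44.3% of Q1 cells and in 12.8%, 2.82% and 6.94% of Q2, Q3 and Q4 cells. Against the mean of the 3 other quartiles, Rab4a differed by 1.86 ± 0.21 (adjusted p = 1.34e-05) and kept that call under all 12 settings in which it was tested. The 2 genes against Q2 became 0 without preparation 1 or without preparation 2, and 1 without preparation 3 or without preparation 4. Of 10411 genes, 597 had an unadjusted p under 0.05 in limma between Q1 and Q2, of which 450 were higher in Q1. Where no gene differs, a share of 0.05 is under that threshold, so these 597 are not calls.

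The GDNF receptor and stem cell genes were the list with most calls. Of 15 tested members, 8 were higher in Q1 and 0 lower, beside 1.47% higher and 0.134% lower over all genes, with a median difference of 1.21 against 0.08, and all 15 differences were above 0. These shares over all genes are the background for the counts of the other lists too. The 8 were Gfra1, Ret, Etv5, Lhx1, Eomes, Foxc2, Tspan8 and Mcam. Gfra1, Etv5, Lhx1 and Eomes are also among the 6 markers, which were chosen with these results known, so the count is no independent evidence. Ret, the signalling subunit of the GDNF receptor, was at 2.74, 3.79, 2.61 and 3.39 in Q1 against 1.22, 2.31, 2.13 and 1.77 in the rest. Its difference of 1.27 ± 0.29 (limma, adjusted p = 0.0194) lost the call under 8 of 13 other settings, leaving out preparation 1, 2 or 4 among them. Mcam, a cell adhesion molecule of the immunoglobulin family, differed by 1.61, Tspan8, a tetraspanin used to sort spermatogonia, by 1.62, and the forkhead factor Foxc2 by 1.52. Tspan8 lost its call without preparation 3, and Foxc2 without preparation 2 and with detected genes as a covariate (1.03, limma, adjusted p = 0.206). Both also lost it on log2 of mean FPKM (adjusted p = 0.138 and 0.365), and Tspan8 without the preparation block (0.216). Mcam lost its call without the block and with the covariate, where the limma adjusted p was 0.0658. Zbtb16, which marks undifferentiated spermatogonia as a whole, was at 4.94 ± 0.90 in Q1 and at 4.81, 4.599 and 4.11 in Q2, Q3 and Q4, and did not pass (adjusted p = 0.547). Nor did Sall4, a zinc finger factor of the same cells, at 7.55 ± 0.77 in Q1 and 7.14 in Q4 (adjusted p = 0.803).

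Feedback genes of receptor tyrosine kinase and ERK signalling showed 5 of 13 tested members higher and 0 lower, with a median difference of 0.49. These were Dusp6, Etv5, the pathway inhibitors Spry2 and Spry4, and Egr2, an immediate early zinc finger factor. Egr2 was at 2.97, 4.10, 3.63 and 2.93 in Q1 against 1.39, 2.08, 1.32 and 1.16, a difference of 1.92 ± 0.28 (adjusted p = 0.000187). Spry4 differed by 1.66 ± 0.27, with a low Q1 mean of 1.36 in preparation 1 against 4.22, 3.41 and 3.02. None of the 5 passed on log2 of mean FPKM. In the list of PI3K, AKT and mTOR genes, 1 of 18 tested members passed, Tcl1, itself 1 of the markers, and the median difference was -0.01. The kinase Akt1 was at 0.98 ± 0.65 in Q1 and 1.59, 2.02 and 2.13 in Q2, Q3 and Q4 (adjusted p = 0.0717), and Akt2 at 2.79 ± 0.45 against 2.18, 2.07 and 1.83 (adjusted p = 0.203).

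Of the genes of progenitor and differentiating spermatogonia, 2 of 13 tested members were lower, Upp1 and Sohlh1, and 0 higher. The median difference was -0.72, and 0 of 13 differences were above 0. With centring on the median gene 4 passed, with detected genes as a covariate 0. Neurog3, a basic helix-loop-helix factor of progenitors, was at 1 FPKM or more in 3.80% of Q1 cells and in 14.1%, 14.1% and 12.5% of Q2, Q3 and Q4 cells (adjusted p of its level 0.0580). Nanos3, an RNA-binding protein, was at 3.48 ± 0.86 in Q1 and at 4.80, 5.40 and 4.57 in the others (adjusted p = 0.0817). Kit, the stem cell factor receptor of differentiating spermatogonia, was at 0.99 ± 0.40 in Q1 (limma, adjusted p = 0.530 against the rest). In Q2 it was as low, at 0.99, with 1.43 in Q3 and 2.32 ± 1.64 in Q4. The Q4 mean of preparation 4 was 4.70, against 1.92, 0.95 and 1.69 in preparations 1 to 3. Stra8 was at 1 FPKM or more in 67.1% of Q1 cells and in 67.9%, 63.4% and 69.4% of Q2, Q3 and Q4 cells. Its mean levels were 3.45 in Q1 and 4.28, 4.48 and 5.05 in the others. None of 9 retinoic acid genes passed, with a median of -0.20 and no difference above 0. The retinoic acid receptor Rarg, at 0.81 ± 0.39 in Q1 against 1.02, 1.68 and 1.87, was among them (adjusted p = 0.1004).

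In the BMP and TGF-beta list 1 of 12 passed, the inhibitory Smad6, which was higher by 0.81 and lost its call under 9 of 12 other settings. No member passed in the lists for S phase (19 tested, median 0.20), G2 and mitosis (20 tested, median 0.22), immediate early and dissociation stress genes (16 tested, 0.27), germ cell RNA-binding proteins (16 tested, -0.16), cytosolic ribosomal proteins (30 tested, -0.06), glycolysis (17 tested, -0.01), nuclear oxidative phosphorylation (25 tested, 0.03) or steady cellular genes (20 tested, 0.08). With detected genes as a covariate the medians of S phase and of G2 and mitosis were -0.08 and -0.10, and that of the ribosomal proteins 0.03, and after centring those of oxidative phosphorylation and the steady genes were -0.10 and -0.06. No direction is drawn for these 5 lists, whose medians changed sign. The stress gene Fos was at 4.59, 6.80, 6.46 and 4.52 in Q1 against 3.70, 4.65, 4.43 and 4.45 (limma, adjusted p = 0.0728).

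FPKM is scaled by transcript length, and genes were ranked by it. The settings and annotation behind that scaling are not known, so ranks between genes are approximate. The most abundant of the genes named in Q1 was Mt1, the metal-binding metallothionein 1, with a mean log2(FPKM + 1) of 11.70, 11.82, 11.47 and 11.72 in preparations 1 to 4, and its FPKM in single cells had a median of 3156 with a lowest value of 1383. It was also higher in Q1 than in the other quartiles, by 0.45 ± 0.08 (limma, adjusted p = 0.00188), with means of 11.39, 11.17 and 11.11 in Q2, Q3 and Q4. Next came Cox6a1, a subunit of cytochrome c oxidase, at 11.26, the ubiquitin gene Ubb at 11.25, the ribosomal protein gene Rpl41 at 11.15, and Ptges3, the HSP90 co-chaperone p23, at 11.08. Cox4i1, Sdc4, Rpl4, Psmb2 and Ndufb9 were also among the 12 most abundant, down to 10.33. The 13th gene was at 10.28. The ranks of neighbours such as Cox6a1 and Ubb were not separated beyond the spread over preparations, with SDs of 0.22 and 0.12.

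Sdc4, the heparan sulfate proteoglycan syndecan 4, was the surface protein among them. It was detected in all 79 cells with Q1 means of 10.49, 10.69, 10.78 and 10.96. Q2 at 10.82 and Q3 at 10.75 were as high as Q1, and Q4 was at 9.78, so that Q1 against the rest did not pass (adjusted p = 0.301). The SD between cells of a preparation was 0.75 among Q1 cells, against 0.65, 0.92 and 2.29 in the quartiles from Q2 to Q4. The 100 most abundant genes of a cell held 23.03% of its summed FPKM in Q1, and 23.8%, 23.5% and 24.5% in Q2, Q3 and Q4. That difference of -0.895 percentage points did not pass (exact permutation p = 0.0977), and in 2 of 4 preparations Q1 was the higher.

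A set of 473 genes was at 1 FPKM or more in all 79 Q1 cells, and 7568 of 23354 listed names were at 0 in every Q1 cell. Mean levels of preparations correlated across genes at r between 0.923 and 0.957, the 3 lowest being pairs with preparation 1; genes are not independent replicates, and this is a description. The most uniform genes, by the SD of log2(FPKM + 1) between cells of 1 preparation among genes with a mean of at least 5, were Rpl14 (0.41), the elongin B gene Tceb2 (0.42), Rplp1 (0.42), Rps19 (0.44), Ubb (0.44), the proteasome subunit Psmb1 (0.45), Rpl32 (0.45) and Rpl4 (0.45). Of these 8, 5 encode ribosomal proteins, as do 34 of the 100 most uniform genes, against 47 of all 1419 genes eligible. Rpl14 ranged from 312 to 1128 FPKM over the 79 cells, with a median of 492. Its SD was 0.43, 0.40 and 0.53 in Q2, Q3 and Q4. The ninth gene had an SD of 0.46.

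**Figure D3:**
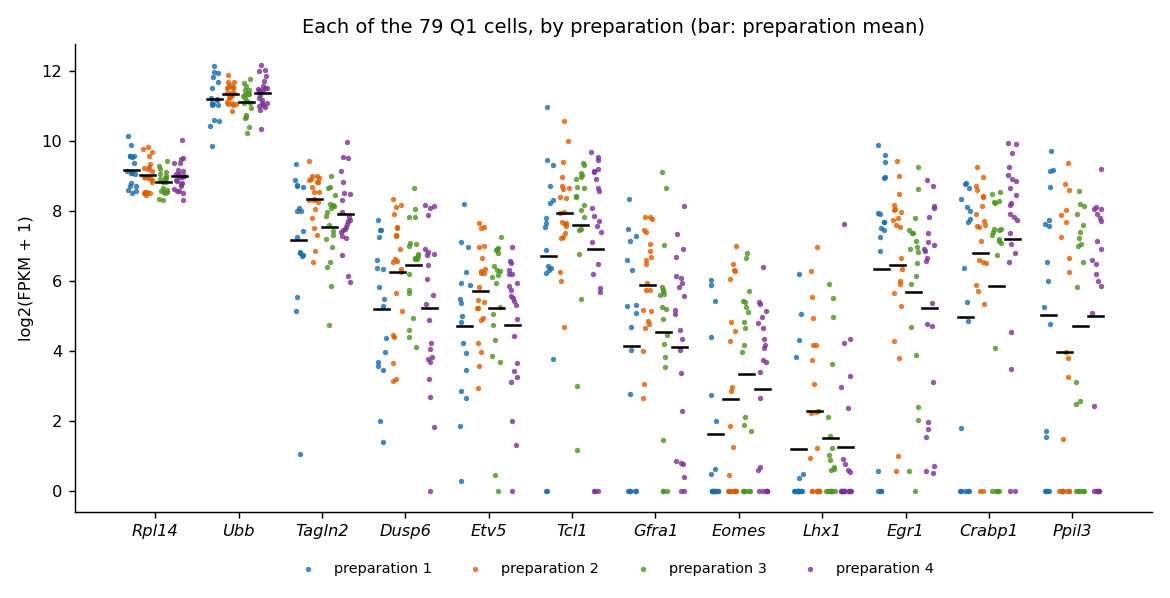
Log2(FPKM + 1) (y axis) of 12 genes in each of the 79 Q1 cells, coloured by preparation, with black bars at preparation means. Rpl14 and Ubb form narrow bands in every preparation, Tagln2 is above 1 FPKM in all cells, and Eomes, Lhx1, Crabp1 and Ppil3 hold both cells at 0 and cells at high values.

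The spread between cells depends on the level, so variable genes were ranked by excess SD, the SD minus a running median over the genes nearest in mean. Of the 15 at the top, 14 were detected in most Q1 cells, and Snhg9 was at 0 in 41 of 79; all 15 were at 0 in at least 1 cell. Ppil3, a cyclophilin-type prolyl isomerase, led with an SD of 3.54, an excess of 1.35. It was at 0 in 23 of 79 cells, with a median of 62.8 and a highest value of 835 FPKM. Its SD was 3.38 in each of Q2, Q3 and Q4, and exons of Nif3l1 on the other strand overlap it. Crabp1, which binds retinoic acid in the cytoplasm, had an SD of 3.06 and an excess of 1.24, with 13 cells at 0 and a median of 178 FPKM. Its SD was 2.81, 2.94 and 1.87 in Q2, Q3 and Q4, with mean levels of 6.19 in Q1 and 6.56, 6.88 and 7.91 in the others.

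Zglp1, a GATA-like zinc finger factor of germ cells, was at 0 in 22 cells and had Q1 means of 2.49, 5.55, 4.79 and 5.12, so preparation 1 was the lowest. Cyb5, the electron carrier cytochrome b5 (22 cells at 0), and Med21, a subunit of the mediator complex (13 cells at 0), followed, with excess SDs of 1.21 and 1.20. The others among the 15 were Efcab10, Commd4, Trappc2l, Chmp5, Egr1, Tcl1, Snhg9, Bex1, Timm10 and Tuba3b, with excess SDs from 1.16 to 1.07. The 16th gene had 1.07 as well, so the boundary separates no groups. Of the 15, 13 were in the top 10% by excess SD in each of the 4 preparations taken alone, and Tcl1 and Tuba3b in 3. In all, 208 genes were among the top 1053 in every preparation.

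Egr1, an immediate early zinc finger factor, varied from 0 in 4 cells to 934 FPKM with a median of 118. Its Q1 means were 6.32, 6.43, 5.67 and 5.23, and its level did not differ from the rest (limma, adjusted p = 0.832 for a difference of 0.18 ± 0.26). Tcl1 was at 0 in 5 cells and at 1996 FPKM in the highest, with a median of 230. Averaged over preparations, its SD between cells was 2.39 in Q1 and 3.11, 3.59 and 2.83 in Q2, Q3 and Q4, a difference that did not pass (limma, adjusted p = 0.710). Dusp6 and Etv5 lay under the running median, with excess SDs of -0.14 and -0.29, and Gfra1 (0.29), Eomes (0.07) and Lhx1 (0.04) lay above it. Gfra1 was at 0 in 10 of the 79 brightest cells, Eomes in 28 and Lhx1 in 38.

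**Figure D4:**
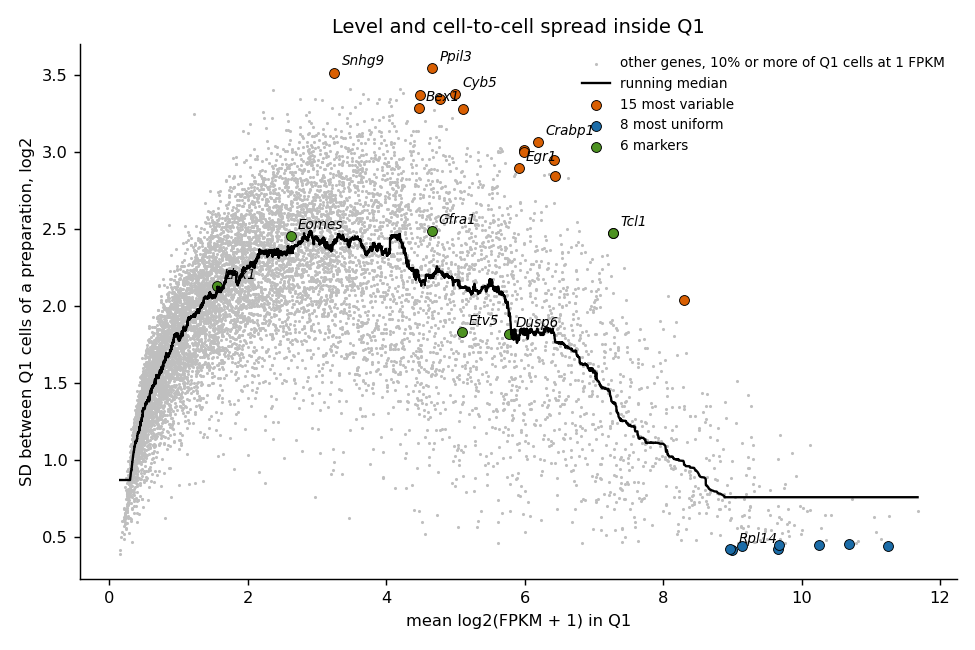
SD between Q1 cells of a preparation (y axis, log2 scale) against mean log2(FPKM + 1) in Q1 (x axis) for genes at 1 FPKM or more in at least 10% of Q1 cells, with the running median in black. The 15 most variable genes lie above it, from Snhg9 at a mean of 3.25 to Tuba3b at 8.30, and the 8 most uniform below it; Tcl1 is drawn as a marker and is also 1 of the 15.

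The SD between cells was tested for 8619 genes against the mean SD of Q2, Q3 and Q4. None was more variable in Q1 and 2 were less variable, 0.0232%, at an adjusted p under 0.05 in limma. At an unadjusted p under 0.05 there were 535 of 8619, of which 173 were more variable. Where no gene differs, a share of 0.05 is under that threshold, so these 535 are not calls. Tagln2 had an SD of 1.96, 0.75, 1.07 and 1.04 in Q1 and of 2.70, 2.75 and 3.02 on average in Q2, Q3 and Q4. All its Q1 values except that of preparation 1 lay under the lowest of the 12 others, 1.84, and the difference was -1.62 ± 0.22 (adjusted p = 0.0155). It was at 1 FPKM or more in 100% of Q1 cells and in 89.7%, 80.3% and 79.2% of Q2, Q3 and Q4 cells. Its mean was highest in Q1, at 7.73 against 6.35, 5.32 and 4.96. Set against the SD usual at its level, the difference was -0.62 (adjusted p = 0.918).

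Snx33, a sorting nexin of endocytosis, was the other. Its SD was 1.35 in Q1 and 2.15, 2.57 and 2.30 in Q2, Q3 and Q4, a difference of -0.995 ± 0.15 (limma, adjusted p = 0.0291). Its level was lower in Q1 in all 4 preparations, at 0.26, 0.36, 0.61 and 0.48 against 1.25, 1.84, 1.70 and 2.04 (difference -1.28 ± 0.24, adjusted p = 0.00359), and it was at 1 FPKM or more in 8.86% of Q1 cells. Against the SD usual at its level the difference was 0.10, of the other sign. Neither gene's SD passed without preparation 1, without preparation 2 or without preparation 4, and Snx33 did not without preparation 3. For Eomes the SD was 2.44 in Q1 and 2.01, 1.03 and 0.53 in the others, higher in 4 of 4 preparations, and it did not pass (adjusted p = 0.246).

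Co-variation inside Q1 was described by Pearson r over 79 cells, with values centred on the preparation mean. All cells of a preparation share a chip and differ in depth, so r is given with no test. Over all pairs of 9812 genes the median r was 0.0134 and the 99th percentile 0.289. Among gene lists, the mean r between members was highest for G2 and mitosis, at 0.213, 0.191, 0.289 and 0.387 in preparations 1 to 4. It was 0.270 ± 0.0885 (SD over preparations) in Q1 and 0.289, 0.313 and 0.297 in Q2, Q3 and Q4. Although its mean was lower, Q1 lay above the mean of the other quartiles in 3 of 4 preparations, and the difference was not tested. Next among the lists in Q1 came the 6 markers at 0.218, cytosolic ribosomal proteins at 0.206, and S phase genes at 0.175. The stem cell list had 0.0656, and all genes together 0.0141.

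**Figure D5:**
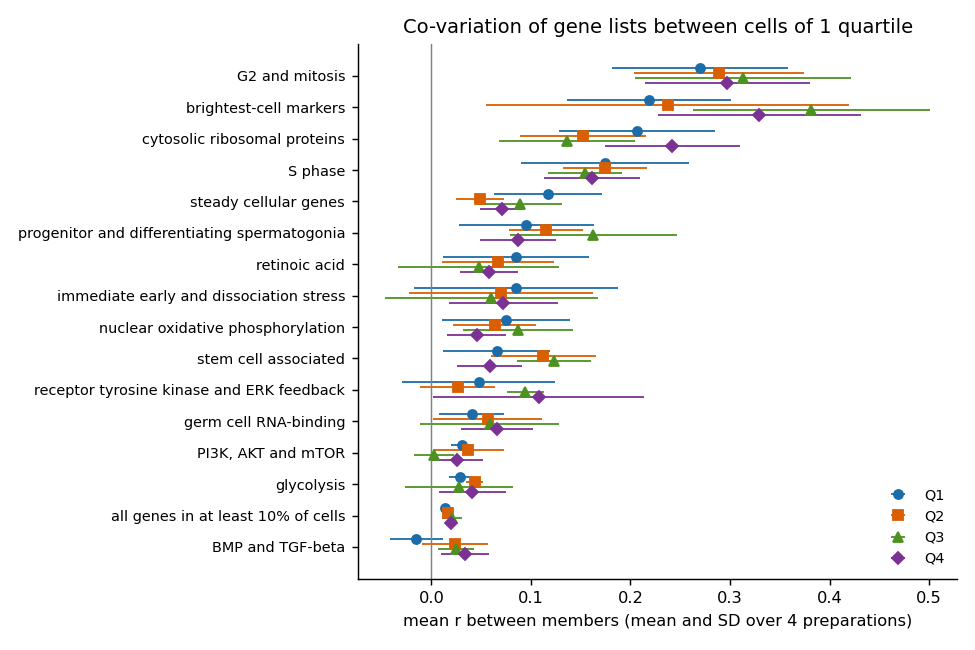
Mean Pearson r between members of each gene list across cells of 1 quartile (x axis), with points at the mean and bars at the SD over 4 preparations, for Q1 to Q4. In Q1 the mitosis list is highest at 0.270, and the 6 markers are at 0.218 in Q1 against 0.382 in Q3.

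The markers co-varied less among Q1 cells than among Q3 and Q4 cells by their means, which were 0.237, 0.382 and 0.329 in Q2, Q3 and Q4. Q1 lay below the mean of the other quartiles in 4 of 4 preparations, and the difference was not tested. Eomes and Lhx1 were at 0 in all Q4 cells of preparations 1 and 3, so those Q4 values cover the other markers only. The Q1 and Q4 means are therefore not over the same pairs. Within Q1 the pairs were unequal. Tcl1 and Gfra1 had r = 0.468 (0.298, 0.120, 0.373 and 0.769 by preparation; 0.299 without preparation 4), against 0.0296, 0.166 and 0.107 in Q2, Q3 and Q4. Tcl1 and Etv5 had r = 0.464, which rested on preparations 3 and 4 at 0.838 and 0.633, since 1 and 2 were at 0.107 and 0.104. Dusp6 and Etv5 were at 0.315 in Q1 (0.155 without preparation 4) and at 0.416, 0.664 and 0.611 in the others.

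Eomes had an r near 0 with 4 of the 5 other markers inside Q1. Its r was 0.0543 with Tcl1, 0.00524 with Dusp6, 0.0293 with Etv5 and 0.0659 with Gfra1, while the same 4 pairs were between 0.152 and 0.426 in Q2, Q3 and Q4. In Q3 and Q4 those values rest on few cells, since Eomes was at 1 FPKM or more in 8.45% and 6.94% of them. The difference between quartiles was not tested. The values for Gfra1 and Eomes changed sign over the preparations, at 0.585, 0.223, -0.146 and -0.303, each over 17 to 22 cells. Whether the preparations differ was not tested, and no common relation is drawn for the 4. With Lhx1, Eomes had r = 0.331, at 0.463, 0.478, 0.140 and 0.206 by preparation. The pairwise r of Tcl1 and Lhx1 was the steadiest of the 15 marker pairs, between 0.217 and 0.357.

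For each marker, the 3 genes most like it inside Q1 were named by pooled r over the 79 cells. These are the extremes of 9812 genes and are high by that choice. Tcl1 had Crebbp (r = 0.484, between 0.0136 and 0.763 by preparation, and 0.334 without preparation 1), Gfra1 and Etv5. Dusp6 had Capza1, an actin capping subunit (r = 0.523, between 0.410 and 0.778 by preparation), Rasgrp2 (0.438, and 0.288 without preparation 4) and Mrp63 (0.431). Etv5 had the phosphatase subunit Ppp1ca (0.465), Tcl1 and Coro1b (0.419, and 0.0797 in preparation 3 alone). Gfra1 had Tcl1, Rsrc2 (0.439, and 0.240 without preparation 1) and Sdhd, a subunit of succinate dehydrogenase, at 0.429. The last was between 0.386 and 0.571 in every preparation and at -0.0422, -0.0752 and -0.165 in Q2, Q3 and Q4. Eomes had Tpm1 (0.388), S100z (0.387, with all preparation 3 cells at 1 value) and Ubb (0.365). Lhx1 had Rpap1 (0.492, at least 0.392 in each preparation), Dhodh (0.435) and B3gnt1 (0.431, with a rank correlation of 0.264).

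Among the 300 most variable genes, 28 of 44850 pairs had r of at least 0.3 in every preparation. The 10 pairs whose lowest r over preparations was highest were named. They were chosen for a high r in Q1, so lower values in the other quartiles follow in part from that choice. Pbk and Birc5, a mitotic kinase and the chromosomal passenger survivin, had the highest pooled r of them at 0.594 (0.618, 0.758, 0.451 and 0.510), and 0.597, 0.318 and 0.0172 in Q2, Q3 and Q4. Tuba3b, an alpha tubulin, was paired with Birc5 at 0.378 in Q1 and 0.323, 0.454 and 0.356 in the others. Pxt1 and Psmb10 were at 0.532 in Q1 and 0.254, 0.471 and 0.411 elsewhere. Hsdl1 and the mitotic phosphatase Cdc25c were at 0.449. Nanos3 and Asns, asparagine synthetase, were at 0.442 in Q1 and 0.234, 0.111 and 0.148 in Q2, Q3 and Q4. Cox7b2, a cytochrome oxidase subunit, was paired with Tex13 (0.514) and Trappc1 (0.531). Their rank correlations were lower, at 0.213 and 0.355, so those 2 values rest in part on cells with extreme levels. The remaining pairs were Hagh with Smap1, Tex13 with Fam136a and Capza2 with Nme4, at 0.398, 0.381 and 0.406.

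Most Q1 cells carried transcripts of G2 and mitosis. Of 20 genes of G2 and mitosis, 67 of 79 Q1 cells had at least 10 at 5 FPKM or more, 84.8%, against 74.4%, 73.2% and 88.9% in Q2, Q3 and Q4. By preparation the Q1 shares were 82.4%, 80.95%, 84.2% and 90.9%, and Q2 ranged from 55% to 100%. The median Q1 cell had 15 of the 20, and 2 cells had 5 or fewer. The kinetochore genes Cenpe and Cenpf were at 1 FPKM or more in 100% of Q1 cells. Top2a, a topoisomerase of dividing cells, was in 91.1%, Mki67 in 70.9% and Plk1 in 43.04%. Members that followed the rest of the list most closely inside Q1 were Top2a, with a mean r of 0.375, Ccnb1 at 0.353 and Birc5 at 0.352. The difference of Q1 from the other quartiles in the share of such cells was not tested.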

How the data were processed

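The authors deposited 1 table of FPKM values for 300 single cells, with gene names and no counts. The file does not name its unit, which was read as FPKM from the values and the submitters' processing notes. These name FastQC, TopHat, Cufflinks and Picard and the builds mm10 and GRCm38. Their settings and annotation are not given in the sources used here. All 300 columns matched a sample title, 0 columns were left without a sample, and no 2 columns were identical. Of 23354 names, 23213 matched a known symbol. Id4 under its own name and the mitochondrially encoded genes were not analysed here.

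Values were taken as log2(FPKM + 1) and averaged over cells of each preparation and quartile (16 means). Genes at 1 FPKM or more in at least 30 cells were fitted with limma 3.58.1 in R 4.3.3 (trend and robust variances), with the preparation as a block, and Benjamini-Hochberg adjustment over all genes tested. The SD between cells was fitted the same way for genes in at least 60 cells. Per-cell measures used exact permutation over 256 relabelings. Quartiles of 1 preparation come from the same pooled mice, which is where the pairing comes from, and deviations of the same preparation correlated at 0.0112 to 0.360 (median 0.129). Whether the preparations used separate mice is not stated beyond the word replicate. The p-values therefore measure how quartile differences varied between preparations, with the mean level of each preparation taken out.

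The code was also run on the real cells with quartile labels shuffled within preparations and known changes added. The outcome of that run is not given here. The members, markers and gene lists were chosen with earlier results of these data known. Named genes were the 6 markers. The 12 largest differences above 0 and 8 below 0 past the threshold with 1 sign in all preparations were named too. The same was done against Q2 and for the SD. Also named were the 12 most abundant, 8 most uniform and 15 most variable genes and the 3 closest to each marker. To these came the 10 pairs with the highest lowest r over preparations and up to 4 members per list. Predicted genes, clone codes and small RNAs were skipped. Some of the most abundant genes are not reported here. Other members named with values, such as Kit, Zbtb16, Sall4, Sdc4 and Cenpe, were chosen after their values were seen. A cell matched another cell type at 5 FPKM or more in at least 3 and at least 50% of the tested genes of that list; 14 cells did, and the fits were repeated without them, an alternative chosen after seeing the data. Positions are from the GENCODE annotation of GRCm38.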

Additional observations from a re-analysis of the deposited data

Results flagged for a closer look

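In 13 of 104 results tested, 12.5%, 1 of the 4 preparations of Q1 cells lay far from the other 3 by Dixon's ratio of the gap to the whole range, at its 95% critical value. Chance flags about 1 in 20 groups. No explanation was tested.

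Preparation 1 was low in genes detected, with 4652 genes per cell at 1 FPKM or more against 5894 to 6108, and 3841 at 5 FPKM or more against 4921 to 5126. Preparation 1 was also low in mean log2(FPKM + 1) for Ptpn13 (4.18 against 4.82 to 4.94), Impact (3.49 against 5.52 to 5.71), Rab4a (1.299 against 2.42 to 2.63), the DNA methylation cofactor Uhrf1 (5.79 against 6.60 to 6.72), the complex I subunit Ndufv1 (6.72 against 7.59 to 7.63) and Actb, cytoplasmic actin (9.80 against 10.41 to 10.49). It was high in Rps19, at 9.65 against 8.93 to 9.01. Preparation 2 was high in the Id4e row, at 4.84 against 3.51 to 3.62. Preparation 4 was high in Akt2 (3.47 against 2.51 to 2.60) and in the mitotic gene Hmmr (3.17 against at most 2.30), and preparation 3 was low in Sdha (6.05 against 6.57 to 6.64).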

How the results depend on the processing

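The 167 genes that differed in level between Q1 and the rest became 48 without the preparation block, 88 with no filter on low values, 27 on log2 of mean FPKM and 59 with detected genes as a covariate. They became 71 to 115 when 1 preparation was left out (71 without preparation 2, 75 without 3, 94 without 4). Of the 167, 147 were among the 162 called without cells matching another cell type. The 2 genes against Q2 became 0 without the block, with no filter or on log2 of mean FPKM, 1 with a stricter filter or the covariate, and 0 to 1 without 1 preparation. The 2 genes with a lower SD became 0 without the block or as excess SD, 1 with a pseudocount of 5 or a stricter minimum of cells, 4 with at least 30 cells (3 lower and 1 higher in Q1), and 0 to 1 without 1 preparation. Snx33 changed sign as excess SD, at 0.10. The excess of detected genes ranged from 206 to 401 without 1 preparation, and the share of the 100 most abundant genes from -1.33 (without preparation 4, exact permutation p = 0.0312) to -0.523 percentage points. The cause was not tested. For named genes' levels, 324 of 400 repeats kept the call, 76 lost it and 0 changed sign. Of the 15 most variable genes, 14 or 15 stayed among the first 100, and of the 8 most uniform all 8 did. Of 234 repeats of named r values inside Q1, 11 moved by more than the SD over preparations. With no read counts, the precision of single cells is not known.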
